A study of Rattus norvegicus with 21 samples.

Results

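The hippocampus of rats killed 24 h after the last of a series of low-pressure exposures was compared with the hippocampus of unexposed rats, across genes. The comparison used 7 of the 21 libraries of the series, chosen by their titles: 3 libraries at 24 h, carrying the replicate numbers 2, 3 and 4, and 4 control libraries, numbered 1 to 4. The rats were wild-type male SD rats, an outbred laboratory strain, that arrived at 4 weeks of age and had 2 weeks to settle in. The exposed rats were taken in a hypobaric chamber to a simulated altitude of 28000 ft and kept there for 5 min, and this was done 6 times, 3 days apart. Of 12 rats, 8 were exposed and 1 of these died during exposure. The control rats, 4 in number, stayed at normal oxygen and were listed as untreated. The labels name 4 rats at 24 h, of which 3 are represented here, and each library came from tissue pieces of mixed cell types. A library titled as hippocampus at 24 h and labelled as cortex was left out. The question was which hippocampal transcripts differ 1 day after repeated hypobaric hypoxia. Of 30560 gene IDs in the table, 15027 had a mean normalized value of at least 10 over the 7 libraries and were tested.

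The hippocampus is the brain region best known for forming new memories, and its pyramidal neurons are among the neurons most readily injured by lack of oxygen. When oxygen falls, cells stabilize hypoxia-inducible factors, transcription factors that switch on genes for sugar breakdown, blood vessel growth and red cell formation. Much of that response is short-lived after oxygen returns, so tissue taken a day later is usually examined for slower changes in neurons, glia and vessels. The gene IDs of the table were not paired with gene names in the sources used here. Transcripts are therefore described as counts of IDs, by level and by tissue preference, and 4 IDs are named as examples. The labelled tissue could not be checked against marker genes for the same reason, and no sequence of a named ID was available to print.

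The 7 libraries were of unequal depth, and hippocampus control 1 stood apart from the rest. It held 4654096 reads in genes, against 11792179 to 15322551 in the other 6, and reads in 15134 genes, against 18578 to 18813. A normalized value of 10 stood for 2.32 reads in control 1 and for 9.28 to 11.0 reads in the other libraries. Of the tested genes, 880 had no read in control 1, and 35 to 98 had none in the other 6. No difference between the groups in these measures exceeded the spread of the libraries. In exact permutation tests (two-sided, 35 arrangements, 4 library measures) the mean of 24 h minus control was 909.7 for genes with reads (p = 0.657, adjusted p = 0.943) and 1242990 for reads (p = 0.943, adjusted p = 0.943). The smallest p that 3 against 4 libraries allow is 0.0286. Without control 1 the differences were 19.7 genes and -1288081 reads.

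Libraries at 24 h also differed among themselves in how reads were spread over genes. The 100 most abundant genes took 29.1% and 29.3% of reads in 24 h replicates 2 and 3 and 41.9% in replicate 4. In controls 1 to 4 they took 35.3%, 35.01%, 36.1% and 32.5%. The 24 h libraries thus lay on both sides of all controls (exact permutation test, two-sided, p = 0.771, adjusted p = 0.943).

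Each library was then placed on a scale between the tissues, where 0 is the median of the cortex and 1 the median of the hippocampus at 48 h. The scale used genes at least 4-fold apart between these 48 h libraries, which are not part of the contrast of 24 h with control. The hippocampus had the higher level of 173 of them and the cortex that of 351. Controls 1 to 4 lay at 0.801, 0.367, 0.921 and 0.985. The 24 h replicates 2, 3 and 4 lay at 0.437, 0.812 and 1.1. In each group the library numbered 2 was thus the one nearest to the cortex end. Between the groups the difference was 0.0146 (exact permutation test, two-sided, p = 0.943, adjusted p = 0.943), and it was -0.119 without control 2 and -0.144 without 24 h replicate 4. Whether these positions reflect neighbouring cortex in the dissected piece was not tested. In the cortex groups, control 3 (0.459) and 24 h replicate 3 (0.307) also lay between the tissues. In bulk tissue, fewer cells of a type and less RNA per cell cannot be told apart.

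**Figure D1:**
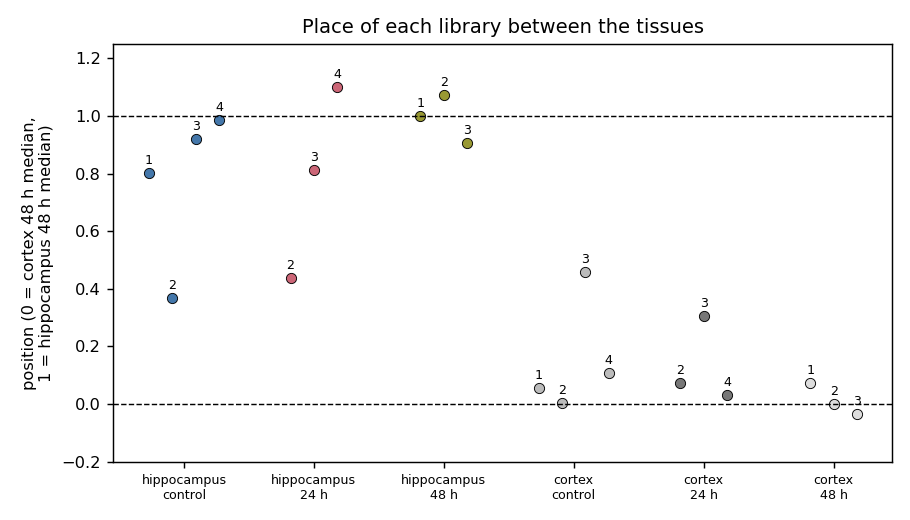
Position of each library (y axis, no unit) between the cortex median (0) and the hippocampus median (1) of the 48 h libraries, by tissue and group (x axis); points are libraries and digits are replicate numbers. Hippocampus control 2 (0.367) and hippocampus 24 h replicate 2 (0.437) lie between the tissues. So do cortex control 3 (0.459) and cortex 24 h replicate 3 (0.307).

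Libraries at 24 h did not form a set apart from controls 2 to 4. The distance of a pair was the median absolute difference over the tested genes on the log2(value + 1) scale. Control 1 lay 0.97 to 1.11 from the other 6 libraries. Controls 2 to 4 lay 0.26 to 0.41 from each other, the 24 h libraries lay 0.23 to 0.42 from each other, and the 9 pairs of a 24 h library with control 2, 3 or 4 lay 0.28 to 0.45 apart. The 24 h replicates 2 and 3 were each other's nearest library among the 10 hippocampus libraries, at 0.23, and both lay as near to 48 h replicate 3. The 24 h replicate 4 was nearest to 48 h replicate 2, at 0.17, and lay 0.41 and 0.42 from the other 24 h libraries. Control 3 was nearest to 48 h replicate 1, at 0.21, and control 2 was nearest to 24 h replicate 2, at 0.33. A library at 24 h was thus about as far from most controls as from another library of its own group.

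**Figure D2:**
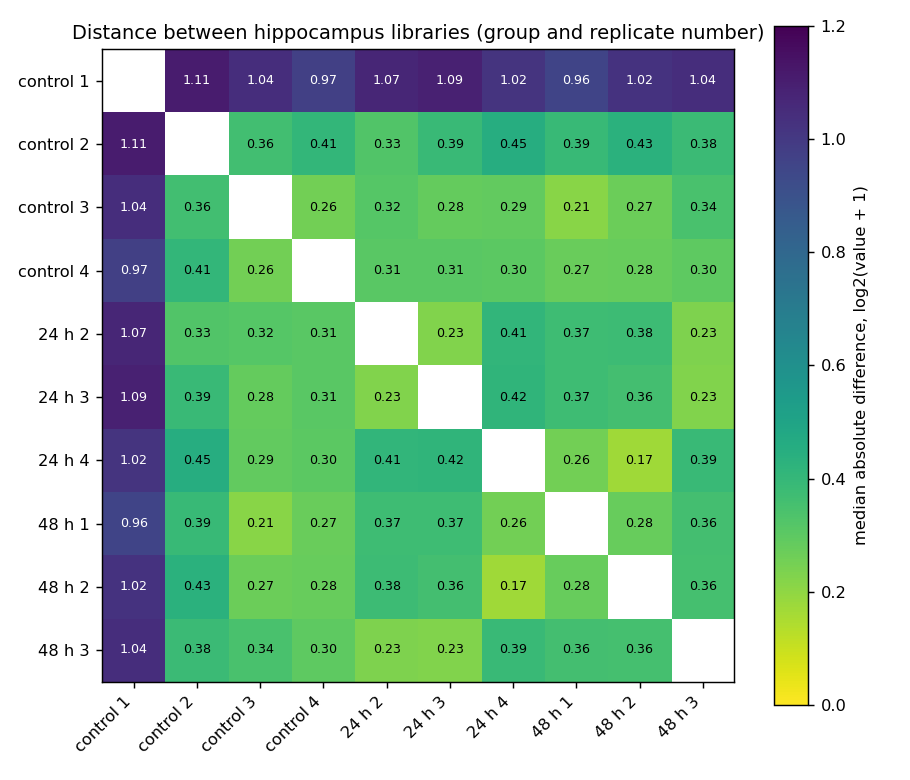
Median absolute difference between each pair of the 10 hippocampus libraries on the log2(value + 1) scale (colour and numbers), with libraries named by group and replicate number on both axes. The row of control 1 stands out at 0.96 to 1.11, and the lowest value is 0.17, between 24 h replicate 4 and 48 h replicate 2.

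In limma, the main test, no gene passed for 24 h against control. Of 15027 genes, 0 (0%) had a Benjamini-Hochberg adjusted p under 0.05 in limma, fitted on log2(value + 1) over the 10 hippocampus libraries. The lowest adjusted p of any gene was 0.851. The number at an unadjusted p under 0.05 was 318 (2.12%), with 198 higher (1.32%) and 120 lower (0.799%) at 24 h, against 751 expected with no effect. This number depends on how the spread is handled, since the median SD was 0.64 in controls and 0.30 at 24 h. With a weight for each library, lowest at 0.057 for control 1, limma gave 1604 such genes and again called 0. edgeR's quasi-likelihood test also called 0, with 609 genes (4.05%) at an unadjusted p under 0.05. DESeq2 called 2 genes (0.0133%), with 804 (5.35%) at an unadjusted p under 0.05. With the replicate number as a block, limma called 0 among all hippocampus libraries (210 genes at an unadjusted p under 0.05). It also called 0 among the 7 libraries alone (726 genes, smallest adjusted p = 0.0925). No 24 h library used here carried the number 1, so control 1 did not enter the changes of this 7-library block.

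Most genes lay close to no change, with a wide margin. The log2 changes had quartiles of -0.31 and 0.34 around a median of 0.03, and the 5th and 95th percentiles were -0.93 and 1.14. The median 95% interval reached 0.88 to either side. For 35.8% of genes the whole interval stayed inside 2-fold either way. For the other genes the interval took in a change of 2-fold or more. Without control 1 this median was 0.60 and 63.4% of genes had intervals inside 2-fold, again with 0 called (smallest adjusted p = 0.615) and 417 genes at an unadjusted p under 0.05.

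**Figure D3:**
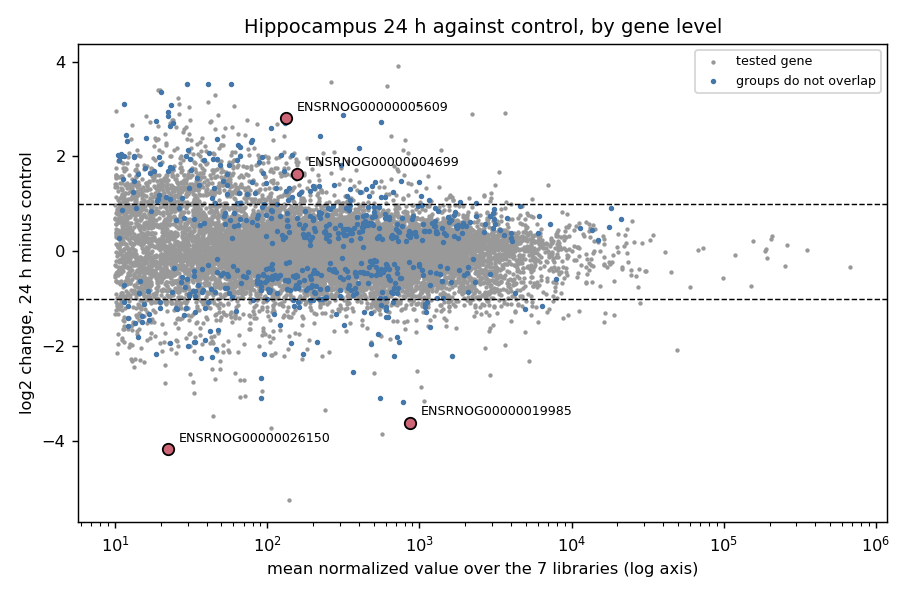
Log2 change at 24 h minus control (y axis) against the mean normalized value over the 7 libraries (x axis, log scale) for 15027 genes; blue points are genes whose groups do not overlap, red points are the 4 named IDs, and dashed lines mark 2-fold. Changes fan out among genes of low level; limma called 0 genes, and DESeq2 called 2 of the named IDs.

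Genes more than 2-fold apart between the group means on the log scale were common, and their number followed 1 library. The log2 change was over 1 for 918 genes (6.11%) and under -1 for 605 (4.03%). limma called 0 of them, and DESeq2 called 1 of each set, ENSRNOG00000005609 and ENSRNOG00000019985. Of the 918 higher genes, 558 (60.8%) had no read in control 1, against 9 of the 605 lower genes (1.49%) and 5.86% of all tested genes. The higher genes were also of low level, with a median normalized value of 39.2, against 282 over all tested genes and 109 for the lower genes. Without control 1 the numbers were 444 higher and 273 lower. Leaving out control 2, 3 or 4 instead gave 1253, 1296 and 1259 higher and 1040, 1065 and 988 lower, with control 1 then making up 1 of 3 controls.

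The balance between higher and lower genes also differed between tools, scalings and pseudocounts. limma gave more higher genes (918 against 605). edgeR, fitted to reads, gave 495 higher and 1357 lower, and DESeq2 gave 468 and 1469. Quantile normalization gave 472 and 640, and a pseudocount of 5 gave 500 and 491. No direction of the comparison as a whole can therefore be stated. Without control 1, control 2 and 24 h replicate 2 together, limma gave 336 higher and 287 lower.

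**Figure D4:**
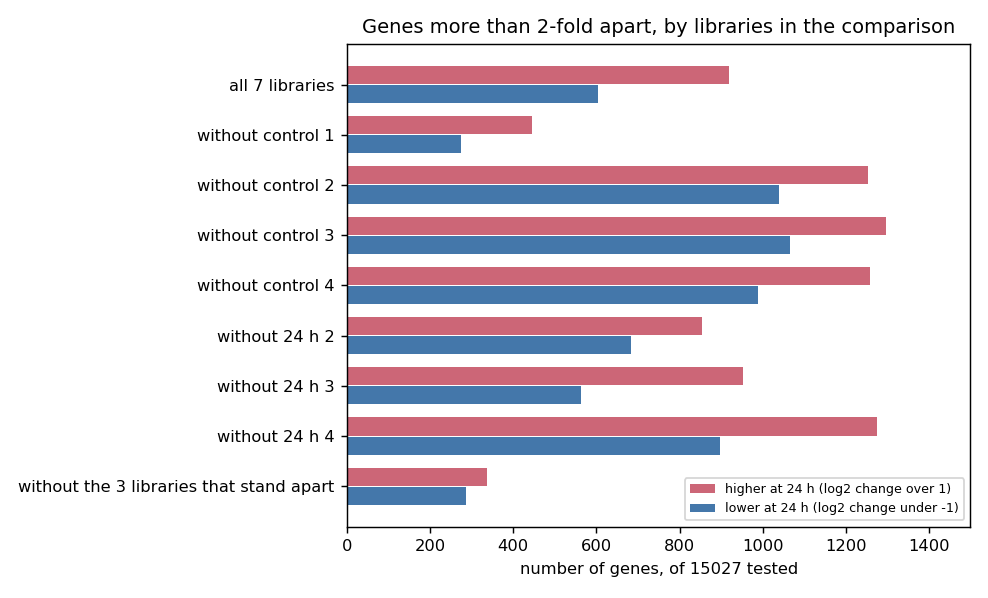
Number of genes (x axis) with a log2 change over 1 (red) or under -1 (blue) at 24 h minus control, with all libraries and without the library named on the y axis. The bars shrink from 918 and 605 to 444 and 273 without control 1; limma called 0 genes with any of these sets of libraries.

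Intervals were widest among genes of low level. Among 2615 genes with a mean of 10 to 50, 20.2% had a log2 change over 1 and 8.64% one under -1, and the median 95% interval reached 1.72 to either side. Among 3660 genes of 50 to 200 these shares were 7.10% and 3.63%, with intervals of 0.94. Among 5991 genes of 200 to 1000 they were 1.65% and 2.35%, with intervals of 0.74. The 2761 most abundant genes, of 1000 and above, had 1.09% and 3.80%, again with intervals of 0.74. In this limma fit, higher genes thus outnumbered lower ones under 200, and lower ones were more frequent above it. Without control 1 the most abundant class had 1.45% higher and 0.724% lower, so that its order turned, and the lowest class had 7.88% higher and 4.74% lower. The share of genes whose interval lay within 2-fold was 4.09% in the lowest class and 47.3% in the highest, and without control 1 it was 17.9% and 77.8%.

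Control 1 was the extreme library for most genes. It was the highest of the 7 libraries for 34.8% of tested genes and the lowest for 39.0%, where an even share would be 14.3% each. Control 2 was the highest for 17.4% and the lowest for 16.7%. The 24 h libraries were the highest for 8.96%, 11.8% and 12.9% and the lowest for 8.68%, 11.1% and 12.0% (replicates 2, 3 and 4). Controls 3 and 4 were the extreme least often, at 7.47% and 6.61% highest and 7.09% and 5.33% lowest. The median SD per gene on the log2 scale was 0.64 in the 4 controls, 0.29 in controls 2 to 4 and 0.30 in the 3 libraries at 24 h.

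Few genes were far from the controls in all libraries at 24 h. Against the control median, 24 h replicate 2 had 1127 genes more than 2-fold above and 558 below, replicate 3 had 831 and 630, and replicate 4 had 599 and 754. Replicates 2 and 3 shared 517 genes above and 203 below. Replicate 4 shared 162 above and 128 below with replicate 2, and 125 and 151 with replicate 3. In all 3 libraries 82 genes were above (0.546% of those tested) and 64 were below (0.426%). For comparison, control 2 against the median of the other controls had 1246 above and 1302 below, control 1 had 3809 and 3722, control 3 had 609 and 669, and control 4 had 671 and 530. The counts of the 24 h libraries lay within the range of controls 2 to 4, with 1 exception. That was the 599 above in replicate 4, just under the 609 of control 3. The medians are not alike, since a 24 h library was set against 4 controls and a control against the other 3. For controls 2 to 4 these included control 1. Of the 82 genes above in all 3 libraries, 41 (50%) had no read in control 1.

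The groups did not overlap for 602 genes (4.01%). All 3 libraries at 24 h were above all 4 controls for 328 genes (2.18%), and below them for 274 (1.82%). With no effect, 1 of the 35 arrangements of the libraries separates the groups in a given direction, a share of 0.0286. The counts are thus no sign of a response. Fewer libraries leave fewer to overlap. Without any 1 of the 7 libraries the counts ran from 535 to 1400 higher and from 462 to 1306 lower, and the highest of both came without 24 h replicate 4. The 4 level classes, from low to high, held 64, 86, 115 and 63 of the higher ones and 59, 81, 103 and 31 of the lower ones. Tested genes in these classes numbered 2615, 3660, 5991 and 2761. For the size of the class, the lower ones were least frequent in the highest class. Of the 328, 119 were also more than 2-fold higher, and of the 274, 78 were more than 2-fold lower.

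The 4 named IDs are the 2 with the smallest p in each direction among genes whose groups did not overlap. Their separation and their intervals follow in part from that choice and add no support. ENSRNOG00000005609 had normalized values of 379, 116 and 274 at 24 h (replicates 2, 3 and 4) and of 90.6, 33.5, 21.3 and 15.4 in controls 1 to 4. The 24 h values were all above the controls, and replicate 3 was close to control 1, whose value rests on 21 reads. Controls averaged 40.2 ± 34.4 (SD, n = 4) and the 24 h libraries 256 ± 133 (SD, n = 3). The log2 change was 2.81 (SE 0.61, 95% interval 1.45 to 4.17, limma adjusted p = 0.851). DESeq2 called it (adjusted p = 0.0442) and edgeR did not (adjusted p = 0.825).

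The same ID was low again at 48 h, where the values were 15.4, 21.0 and 22.4, within the range of the controls. The log2 change of 48 h minus 24 h was -3.50 (SE 0.65, unadjusted p = 0.000307, limma adjusted p = 1), and 48 h was below 24 h in all libraries. This transcript was higher in cortex than in hippocampus at 48 h (log2 of hippocampus over cortex -3.83). Its cortex values were 56.5 to 279 in controls, 164 to 461 at 24 h and 165 to 392 at 48 h. The 56.5 and the 164 were those of cortex control 3 and cortex 24 h replicate 3, which lay between the tissues. The hippocampal 24 h library nearest to the cortex end of the tissue scale, replicate 2, had its highest value of the 3, while replicate 4, at the hippocampus end, had 274. Control 2, which lay near to replicate 2 on that scale, had 33.5. The part of tissue position in this result was not tested.

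ENSRNOG00000004699 had 245, 220 and 279 at 24 h and 38.8, 73.3, 98.1 and 136 in controls 1 to 4. All 3 libraries at 24 h were above the highest control, and the spread was narrow at 24 h. The mean was 248 ± 29.3 (SD, n = 3) against 86.6 ± 41.0 (SD, n = 4), a log2 change of 1.64 (SE 0.42, 95% interval 0.70 to 2.57, limma adjusted p = 0.851). At 48 h it had 122, 216 and 253, so that replicate 1 was within the control range and replicates 2 and 3 were above it. Without control 1, whose value was the lowest, the log2 change was 1.30, and without control 1, control 2 and 24 h replicate 2 it was 1.09.

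ENSRNOG00000019985 was the tested gene with the smallest p. It had 161, 93.7 and 69.9 at 24 h and 2080, 2147, 888 and 634 in controls 1 to 4. Every library at 24 h was below every control, and controls 1 and 2 were higher than controls 3 and 4. The mean was 108 ± 47.0 (SD, n = 3) against 1437 ± 788 (SD, n = 4), a log2 change of -3.62 (SE 0.77, 95% interval -5.33 to -1.90, limma adjusted p = 0.851). DESeq2 called it (adjusted p = 0.0170) and edgeR did not (adjusted p = 0.825). At 48 h the libraries were far apart, with 784, 130 and 67.1 in replicates 1, 2 and 3. In cortex it had 334 ± 235 (SD, n = 4) in controls and 275 ± 215 (SD, n = 3) at 24 h. The highest of these, 686 in control 3 and 522 in 24 h replicate 3, came from the cortex libraries that lay between the tissues.

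ENSRNOG00000026150 was a low transcript whose value rests on few reads. It had 1, 0 and 1 reads at 24 h (replicates 2, 3 and 4) and 18, 11, 16 and 57 reads in controls 1 to 4. In normalized values these were 1.08, 0 and 0.998 at 24 h and 77.7, 9.96, 14.8 and 51.8 in controls. The summed reads, 2 at 24 h and 102 in controls, gave a ratio of 43.0 for control over 24 h (95% exact interval 11.6 to 360, counting error only). On the log2(value + 1) scale the change was -4.18 (SE 0.96, 95% interval -6.31 to -2.05, limma adjusted p = 0.851). With so few reads its size follows the pseudocount, at -2.60 with a pseudocount of 5 and -5.79 with 0.1, and DESeq2 gave -5.78. edgeR and DESeq2 gave adjusted p of 0.825 and 0.0960. At 48 h it had 13.2, 4.85 and 1.12, with replicate 1 within the control range and replicates 2 and 3 between the groups.

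**Figure D5:**
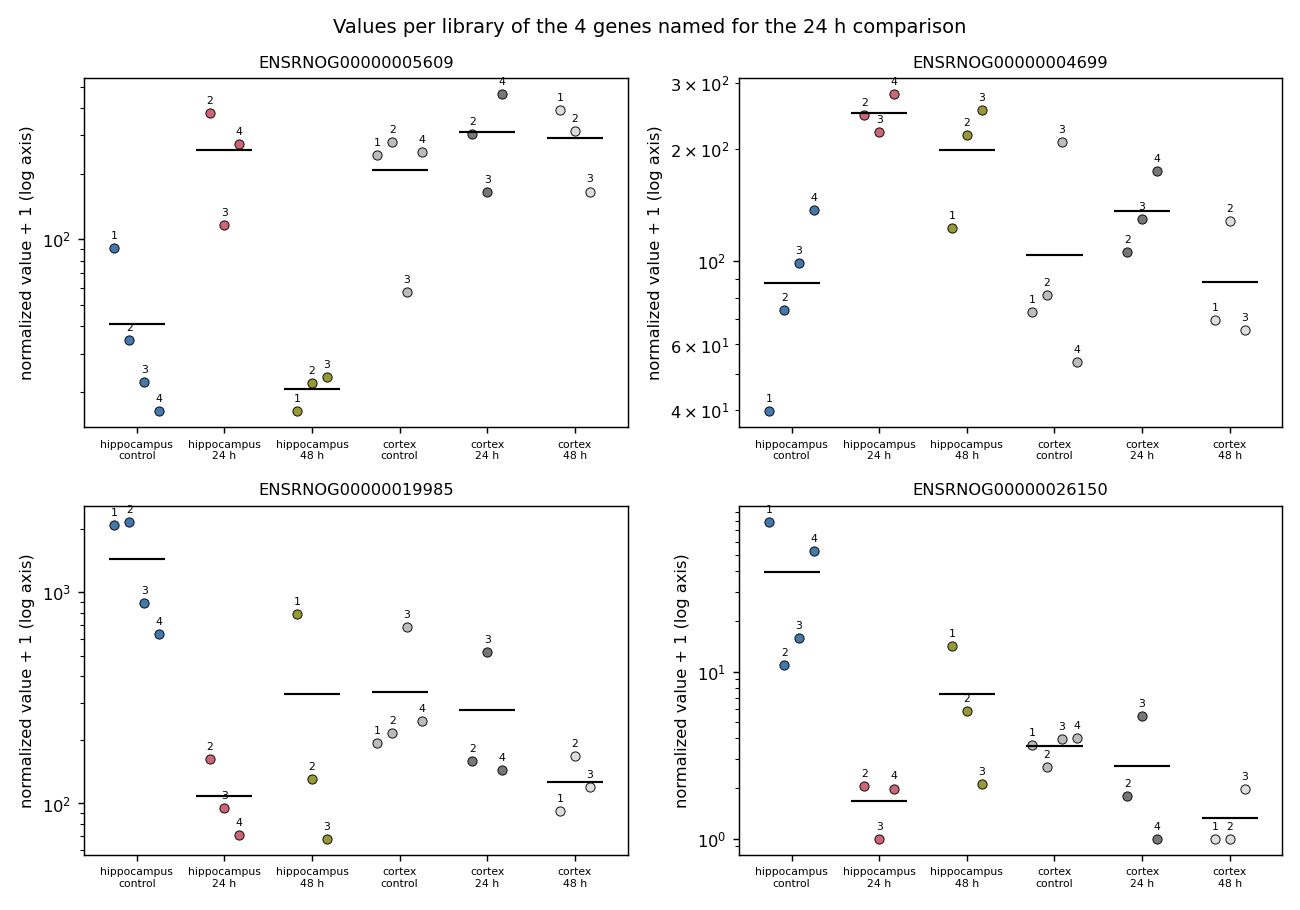
Normalized values plus 1 (y axis, log scale) of the 4 named IDs in each library, by tissue and group (x axis); points are libraries, digits are replicate numbers and lines are group means. The hippocampus 24 h points lie above all hippocampus controls in the upper panels and below them in the lower panels, because the IDs were chosen that way.

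Genes that distinguish the tissues included larger shares past 2-fold than all tested genes, in both directions, with medians near 0. Of the 173 genes at least 4-fold higher in hippocampus, 20 (11.6%) had a log2 change over 1 at 24 h and 12 (6.94%) one under -1, with a median of 0.05. Of the 351 genes at least 4-fold higher in cortex, 39 (11.1%) were over 1 and 27 (7.69%) under -1, with a median of 0.01. Over all tested genes these shares were 6.11% and 4.03%, with a median of 0.03. limma called 0 of these genes. DESeq2 called 1, ENSRNOG00000005609, which is among the genes higher in cortex and whose groups did not overlap. Their intervals were wide, reaching 1.26 to either side at the median for hippocampus genes and 1.64 for cortex genes, against 0.88 over all genes. Groups did not overlap for 4 of the hippocampus genes, all higher at 24 h, and for 7 of the cortex genes, 1 higher and 6 lower. These counts are small, and over all tested genes the shares were 2.18% higher and 1.82% lower. Control 2 and 24 h replicate 2 lay between the tissues (0.367 and 0.437), and their part in these shares was not tested.

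limma found no gene that differed between 48 h and 24 h in hippocampus, or whose 24 h response differed between hippocampus and cortex. Between 48 h and 24 h in hippocampus, limma called 0 genes, with a median interval of 0.94 to either side. The number at an unadjusted p under 0.05 was 25 (0.166%), against 751 expected with no effect. The spread used for this contrast was estimated with the controls included, control 1 among them. The median SD was 0.64 in controls, 0.30 at 24 h and 0.29 at 48 h. This contrast was not fitted without control 1. Both times share the same 4 controls. For 48 h against these controls limma called 0, with 231 (1.54%) at an unadjusted p under 0.05. In cortex, 24 h against control gave 0 calls and 428 genes (2.85%) at an unadjusted p under 0.05. The difference between the 24 h responses of hippocampus and cortex was tested as an interaction in a fit of 20 libraries. There limma called 0, with 527 (3.51%) at an unadjusted p under 0.05 and a smallest adjusted p of 0.855. The 4 control rats gave libraries of both tissues. The 24 h libraries of both tissues carry the same replicate numbers and come from the 4 rats named at 24 h. Some exposed rats therefore gave both tissues too. This fit had no term for the rat, and the replicate block was set within each tissue. The interaction of the 4 named IDs was 2.12, 1.07, -3.28 and -3.45 on the log2 scale in the order given above, each with an adjusted p of 0.855.

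Across genes, the 24 h changes in hippocampus and cortex had correlations near 0. These changes share no library but share control rats and some exposed rats. Pearson's r was -0.03 and Spearman's rho -0.03 over 15027 genes, and 0.00089 and 0.02 without hippocampus control 1. Genes are not independent replicates, so these values describe the tables only. Of the 328 genes higher in all hippocampus libraries at 24 h, 12 (3.66%) were higher and 9 (2.74%) lower in all cortex libraries at 24 h. Of the 274 lower genes, 6 (2.19%) were higher and 10 (3.65%) lower in cortex. Over all tested genes, cortex groups did not overlap for 4.16% higher and 4.91% lower.

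Transcripts seen in 1 group alone were rare and low. Reads were found in all 3 libraries at 24 h and in no control for 37 IDs, and in all 4 controls and in no library at 24 h for 7. The highest mean among these was 12.7 and 11.5 in normalized value, and 0 of them reached a mean of 10 over the 7 libraries. Counted without control 1, the numbers were 42 and 34. The 2 directions were thus closer in number without that library.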

How the data were processed

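RNA of hippocampus and cerebral cortex was made into stranded mRNA libraries, per the labels' protocols. fastp 0.20.0, HISAT2 2.1.0 and featureCounts 2.0.1 are named, per the submitters' processing notes; no source used here names the genome build, annotation, strand setting or count filter. A table of normalized signal per gene was deposited, that is, read counts scaled by a size factor for each library. All values (100%) were whole multiples of the value of 1 read within 0.001 of a read, so reads were recovered, and median-of-ratios factors over all 21 libraries matched the deposited scale. Such scaling removes a shift shared by most genes.

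The main test was limma 3.58.1 (R 4.3.3) on log2(value + 1) (intensity trend, two-sided, Benjamini-Hochberg over 15027 genes, threshold 0.05), with controls, 24 h and 48 h in 1 fit. edgeR 4.0.16 and DESeq2 1.42.0 used the recovered reads; DESeq2 gave 633 genes no adjusted p. The code was tested on simulated counts. Depth was 4654096 to 15322551 reads in genes, and intervals of reads cover counting error only. Rats of a group are separate animals per the labels. Read counts of each pair of libraries within a group gave a chi-square of 20.9 to 215 for each degree of freedom, more than sampling gives. Within hippocampus, replicate numbers name different rats in different groups. The deviations of same-numbered control and 24 h libraries correlated at 0.321, 0.191 and 0.116 (numbers 2, 3 and 4). Differently numbered pairs of these groups ran from -0.284 to 0.130. Same-numbered pairs with 48 h libraries ran from -0.477 to 0.370, and differently numbered ones from -0.644 to 0.602.

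The samples, lists and tests were chosen with earlier results of these data known. Of the table's IDs, 0 matched the reference table of 47357 rat genes (GRCr8), so 31 gene lists and the naming rule for symbols could not be used. In their place, 2 IDs per direction are named: the smallest limma p among genes whose groups do not overlap. Alternatives covered the pseudocount, filter, scaling, variance model, libraries in the fit, library weights, a replicate block, both count tests and leaving out libraries. The block in the 7 libraries alone and for 48 h against control, and leaving out libraries for the 48 h minus 24 h, interaction and library measures, were added after seeing the data.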

Additional observations from a re-analysis of the deposited data

Results flagged for a closer look

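Hippocampus control 1 was far from the other 3 controls in reads in genes (4654096) and in genes with reads (15134). The check covered 8 measures in the group of 4 controls: 4 library measures and the values of the 4 named IDs. For each measure, chance gives about 1 in 20. Only the 2 measures above stood apart. Both belong to the same library, and the part of depth in its lower number of genes was not tested. Groups of 3 were not checked. The library with conflicting tissue labels, used in no comparison, had a normalized value of 191.2 for ENSRNOG00000004699, above all 4 hippocampus controls. Only values above the controls were flagged.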

How the results depend on the processing

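For 24 h against control, 21 of 22 alternatives called 0 genes and DESeq2 called 2, with a smallest adjusted p of 0.0170 in DESeq2 and of 0.0925 to 1 in the others. The cause of this gap was not tested. The number at an unadjusted p under 0.05 (318) was 615 with no filter, where more genes are tested, 810 with 20 libraries in the fit, 1604 with library weights, 609 in edgeR and 804 in DESeq2. Without 1 library it ran from 153 to 526 (153, 162 and 526 without 24 h replicates 2, 3 and 4). With a replicate block it was 210, and 726 in the 7 libraries alone, where control 1 did not enter the changes. For 48 h minus 24 h (25) it was 107 with a replicate block and 1699 with library weights, and 12 to 238 without 1 library (12 and 238 without 24 h replicates 2 and 4, 51 and 102 without 48 h replicates 2 and 3). For the interaction (527) it was 234 with a replicate block and 2366 with library weights, and 266 to 1026 without 1 library (308, 266 and 996 without 24 h replicates 2, 3 and 4, 802 and 1026 without controls 2 and 4). For 48 h against control (231) it was 659 with a replicate block. Except for DESeq2, 0 genes were called in each of these. Without 1 library, the difference of 24 h minus control ran from -1288081 to 2268071 for reads in genes, from -5.49 to 0.89 for the percentage of reads in the 100 highest genes and from -0.144 to 0.187 for the tissue position. The 4 named IDs kept their direction under all alternatives in which they were tested; the filter of at least 50 left ENSRNOG00000026150 out. In control 1 a normalized value of 10 stood for 2.32 reads, so values of low-level genes rest on few reads there.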

Other observations

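The library titled as hippocampus at 24 h and labelled as cortex held 12787921 reads in genes and lay at 0.720 on the tissue scale. From genes higher in hippocampus it lay at 0.994, and from genes higher in cortex at 0.626. It had normalized values of 41.3 for ENSRNOG00000005609, 191.2 for ENSRNOG00000004699, 262.5 for ENSRNOG00000019985 and 6.20 for ENSRNOG00000026150. Against the hippocampus controls, ENSRNOG00000005609 lay within their range and ENSRNOG00000004699 above it. ENSRNOG00000019985 and ENSRNOG00000026150 lay below that range.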
